A study of Mus musculus with 12 samples.

Results

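The oxidative stress defence genes described here are 10 genes chosen by name: Sod1, Sod2, Hmox1, Nqo1, Gclc, Gclm, Txnrd1, Srxn1, Prdx1 and Nfe2l2. Their transcripts were followed in dendritic cells (DC) of C57BL/6 mice on Affymetrix expression arrays, on which a transcript is read by 1 or more probe sets. DC were grown from bone marrow for 6 days with GM-CSF and treated with poly(I:C), a mimic of viral double-stranded RNA, for 1, 3, 6, 12 or 24 h, and the reference was DC at 0 h. Each time has 2 arrays, 1 from experiment 1 and 1 from experiment 2, which gives 12 arrays, and the cells of an experiment came from 1 mouse. The labels give GM-CSF at 10 ng/ml and poly(I:C) at 2.5 μg/ml, and the study's methods give higher concentrations of both and a selection of the cells for CD11c. Age is 3 to 4 months in one label and 8 to 10 weeks in another. Cells left untreated were measured at 0 h alone, so an effect of poly(I:C) and an effect of time in culture cannot be told apart.

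A probe set was taken when its annotation names exactly 1 gene and that gene is on the list. This gave 24 probe sets of 9 genes, out of 45037 probe sets and 18193 genes on the array, of which 34945 probe sets name 1 gene. Prdx1, a peroxiredoxin that reduces hydrogen peroxide, has 0 such probe sets, because its 5 probe sets each name a further gene, and its values are not given. Values are MAS5.0 signals, a linear measure of brightness that has no absolute unit and that cannot be set side by side between probe sets. Of the 24 probe sets, 23 had a mean signal of at least 78.4 over the 12 arrays (the median of the platform) and were tested. The exception, 1447761_x_at of Sod1, had signals between 0.5 and 22.8. For a gene with several probe sets, the brightest is called its lead probe set.

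NRF2, the product of Nfe2l2, is a transcription factor that KEAP1 marks for degradation in unstressed cells. When oxidants or electrophiles modify KEAP1, NRF2 accumulates, pairs with small MAF proteins and binds antioxidant response elements in genes for glutathione synthesis, thioredoxin recycling, quinone reduction and heme breakdown, while BACH1 competes for the same elements as a repressor. The superoxide dismutases stand beside this set: SOD1 in the cytosol and SOD2 in mitochondria turn superoxide into hydrogen peroxide, and Sod2 is a textbook target of NF-kB. In DC, the phagocyte NADPH oxidase is a source of superoxide and influences how antigens are processed.

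Of the depth and identity of the arrays, the medians of all signals lay between 71.0 and 91.5, and between 19.5% and 23.0% of signals on each array were below 16. Of the DC list, Itgax (CD11c) lay between 16175.6 and 24684 and Cd74 between 23216 and 34854 on all arrays, while Flt3 and Dpp4 stayed at or below 89.9. Ccr7 ranged from 39.9 to 7854, Cd83 from 263 to 3414.5 and Cd80 from 368 to 2010. Cd86 had 13320 and 9143 at 24 h against 932.6 to 1139 at 0 h. Irf4 had 1364 and 458 at 24 h against 2305 to 3219 at 0 h. Cd86 and Irf4 were named after their values were seen. Of 7 macrophage and monocyte markers, 6 had a probe set and all 6 were tested, with Csf1r between 22071 and 32347 on all arrays. Their summed signal was 60498 and 44276 at 24 h against 40163 and 42105 at 0 h. Within it, Fcgr1 had 12369 and 9389 at 24 h against 1224.6 to 2189.5 at 0 h. Mertk had 3234.5 and 2831 at 24 h against 1143.4 to 1313.7 at 0 h. Mrc1 went the other way, with 92.2 and 673 at 24 h against 1750.4 to 2389.8 at 0 h. In Cd14, Adgre1 and Csf1r the 24 h arrays lay on opposite sides of both 0 h arrays. Fcgr1, Mertk, Mrc1, Cd14 and Adgre1 were named after their values were seen. The summed markers of T and NK cells stayed at or below 285, of B cells at or below 266, of mast cells, basophils and eosinophils at or below 206 and of erythroid cells at or below 278. In the neutrophil list only S100a8 was bright (1509 to 3401), while S100a9, Mpo and Elane stayed at or below 109.7. The plasmacytoid DC list summed to 19424 and 30673 at 24 h against 2359 and 2497 at 0 h, carried by Bst2, while Siglech stayed at or below 35.8. The part of these cell types in the values below was not tested. In bulk samples, fewer cells of a type and less RNA per cell cannot be told apart.

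The lead probe sets of these genes were called at 12 and 24 h, when calls were also most frequent over all tested probe sets. By lead probe set, the heme-degrading enzyme gene Hmox1 was up-regulated at 12 and 24 h and Sod2 at 12 h. The glutathione synthesis genes Gclc and Gclm and the sulfiredoxin gene Srxn1 were down-regulated at 12 h, Gclm at 24 h also. Of 9 other settings tried, the 12 h calls held in 8 for Gclm, 8 for Gclc, 6 for Srxn1, 5 for Hmox1 and 4 for Sod2. The 24 h calls held in 9 for Hmox1 and 7 for Gclm. Sod2 was called lower at 24 h by 2 of its 4 probe sets and Txnrd1 by 2 of its 3, in neither gene the lead, and a dim Sod1 probe set was called lower at 6, 12 and 24 h. Nqo1, Nfe2l2 and the lead probe set of Sod1 passed at no time. A call is an adjusted p under 0.05 in limma, over the 22519 probe sets tested, and each fold change is a difference in log2(signal + 16) from 0 h of the same experiments, which understates the change of dim probe sets.

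At 1 h, 0 of the 9 lead probe sets were called and 0 had an unadjusted p under 0.05 in limma, where 0.0533% of all tested probe sets were called higher and 0% lower (439 had an unadjusted p under 0.05, 173 of them lower). At 3 h the count was again 0 of 9, with 0 at an unadjusted p under 0.05, against 1.01% of all tested probe sets called higher and 0.0444% lower. At 6 h it was 0 of 9, with 0 at an unadjusted p under 0.05, against 3.62% higher and 1.95% lower. The log2 fold changes of the 9 lead probe sets lay between -0.48 and 0.38 at 6 h, with a median of 0.05, beside a median of -0.16 over all tested probe sets.

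At 12 h, 2 of the 9 lead probe sets were called higher and 3 lower, where 9.32% of all tested probe sets were higher and 18.7% lower. Their median log2 fold change was -0.05, beside -0.23 over all tested probe sets. At 24 h, 1 was called higher and 1 lower, where 9.23% of all tested probe sets were higher and 17.5% lower, and the median was -0.23, beside -0.19. Counting all 23 tested probe sets, 2 were higher and 8 lower at 12 h, and 1 was higher and 7 lower at 24 h. Probe sets of 1 gene are not independent of each other. The test over the whole course called 2 of the 9 lead probe sets, Hmox1 (adjusted p = 0.00537) and Gclm (adjusted p = 0.00149), and 8 of the 23 probe sets, where 28.7% of all tested probe sets were called. All times share the 0 h arrays, so the comparisons with 0 h are not independent. In a fit with no replicate block, of the calls of lead probe sets against 0 h only that of Hmox1 at 24 h remained. Calls over all tested probe sets fell as well in that fit. At 12 h they went from 2098 higher and 4205 lower to 1079 and 1936, and at 24 h from 2078 and 3933 to 953 and 1671.

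**Figure D1:**
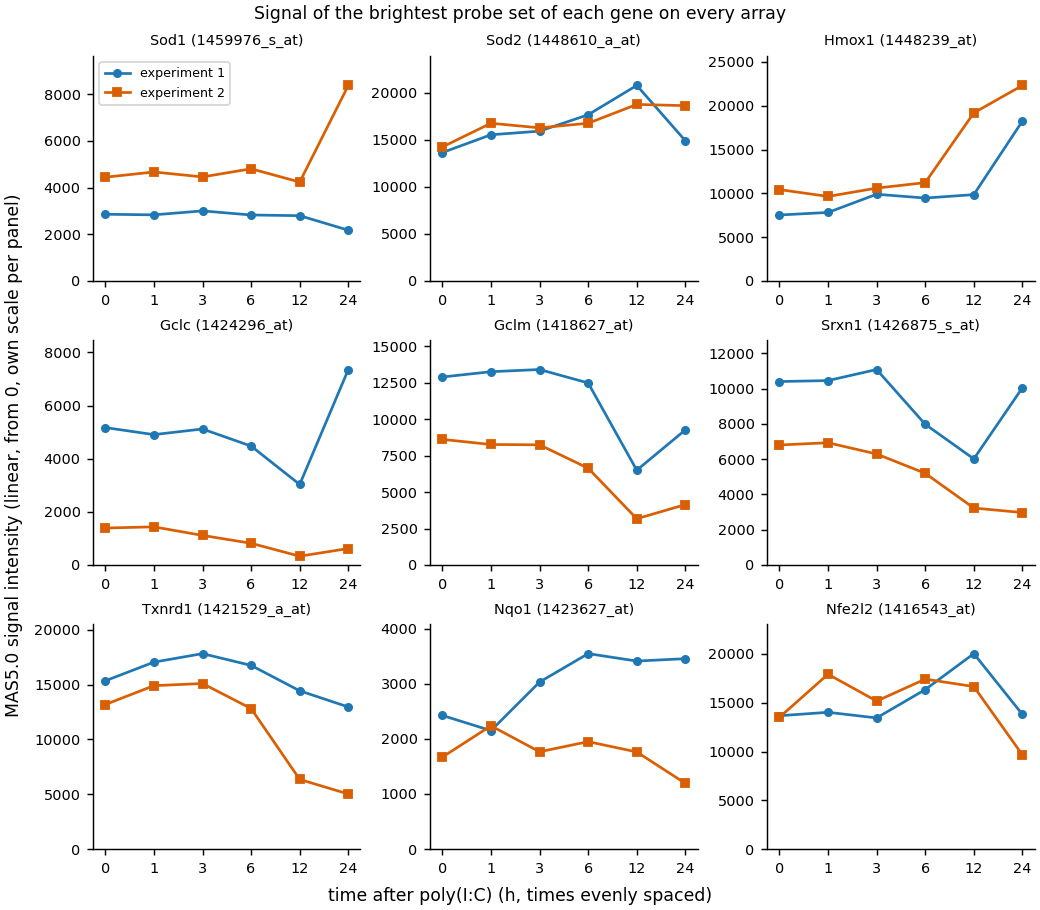
MAS5.0 signal (linear axis from 0, own scale in each panel) of the lead probe set of 9 genes against time after poly(I:C) in h, with 1 line and marker type per experiment and 1 point per array. Hmox1 was highest at 24 h in both experiments, Gclm was lowest at 12 h in both, and the lines of Sod1, Sod2, Gclc, Srxn1, Nqo1 and Nfe2l2 were farthest apart at 24 h.

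Hmox1 encodes heme oxygenase-1, which opens heme to biliverdin, carbon monoxide and iron. From 0 h to 24 h, in the order of the 6 times, its only probe set 1448239_at gave 7523, 7813, 9892, 9458, 9849 and 18251 in experiment 1, and 10425, 9642, 10593, 11218, 19184 and 22319 in experiment 2. Both 24 h arrays lay above both 0 h arrays, while at 12 h only experiment 2 did. Hmox1 was 2.28-fold higher at 24 h (log2 fold change 1.19, SE 0.19, adjusted p = 0.00167), with 2.42-fold in experiment 1 and 2.14-fold in experiment 2. At 12 h it was 1.55-fold higher (log2 0.63, SE 0.19, adjusted p = 0.0328), with 1.31-fold in experiment 1 and 1.84-fold in experiment 2. The 24 h call held without each of the 12 arrays in turn, with log2 fold changes between 1.12 and 1.25. The 12 h call was lost when any 1 of 7 arrays was left out: experiment 2 at 12 h (log2 0.29, adjusted p = 0.292), experiment 1 at 0 h (0.59, adjusted p = 0.163), experiment 2 at 0 h (0.68, adjusted p = 0.115), and either array of 1 h or 6 h (0.63, adjusted p between 0.0505 and 0.0519). With quantile normalization the 12 h value was 0.35 (adjusted p = 0.228).

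The comparison of 24 h with 6 h was chosen with earlier results known, among them the late fall of Sod2. Set against 6 h, which asks whether levels late in the course differed from those in its middle, Hmox1 was the sole lead probe set called. It was 1.96-fold higher at 24 h than at 6 h (log2 0.97, SE 0.19, adjusted p = 0.0115), by 1.93-fold in experiment 1 and 1.99-fold in experiment 2. In this comparison 1 of 9 lead probe sets was called higher and 0 lower, although 4 had an unadjusted p under 0.05 in limma, and 5.52% of all tested probe sets were higher and 7.9% lower. Of the 23 probe sets, 1 was higher and 5 were lower. The call of Hmox1 was lost without the 6 h array of experiment 1 (adjusted p = 0.0672) or of experiment 2 (adjusted p = 0.123).

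Sod2 encodes the manganese superoxide dismutase of mitochondria, and its 4 probe sets split into pairs that moved apart at 24 h. The lead, 1448610_a_at, gave 13625, 15514, 15898, 17639, 20754 and 14879 in experiment 1, and 14218, 16737, 16249, 16737, 18735 and 18605 in experiment 2 from 0 to 24 h. Both 12 h arrays lay above both 0 h arrays, and so did both 24 h arrays, by less. The second, 1417193_at, gave 10647, 11799.7, 12163, 11767, 13909.9 and 12980.5 in experiment 1, and 12136, 14662, 14158, 14782, 15123 and 14457 in experiment 2. Sod2 was 1.42-fold higher at 12 h by the lead (log2 0.50, SE 0.14, adjusted p = 0.0247), and 1417193_at had a log2 fold change of 0.35 (SE 0.13, adjusted p = 0.0636). At 24 h neither was called, with 0.26 (SE 0.14, adjusted p = 0.211) for the lead and 0.27 (SE 0.13, adjusted p = 0.145) for 1417193_at. The 12 h call of the lead was lost without experiment 1 at 0 h (adjusted p = 0.12), experiment 2 at 0 h (adjusted p = 0.113) or experiment 1 at 12 h (0.38, adjusted p = 0.17), and the 24 h value passed without experiment 1 at 24 h (0.42, adjusted p = 0.0253). With quantile normalization the 12 h value was 0.22 (adjusted p = 0.24), and with arrays centred on their medians 1417193_at was called higher at 12 h (0.66, adjusted p = 0.009) and at 24 h (0.51, adjusted p = 0.0295).

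The other two Sod2 probe sets fell late. 1454976_at gave 2331, 2176, 2365, 2539, 2389 and 801 in experiment 1, and 2213, 1945, 2389, 2417, 1696 and 548 in experiment 2, so that it stayed near its 0 h level through 6 h and both 24 h arrays were the lowest of their experiments. 1417194_at, a dim probe set, gave 119 and 109 at 24 h against 176 and 351 at 0 h (experiments 1 and 2), and again the 24 h arrays were lowest. At 24 h 1454976_at was down-regulated 3.37-fold against 0 h (log2 fold change -1.75, SE 0.19, adjusted p = 0.00016) and 3.67-fold against 6 h (-1.88, SE 0.19, adjusted p = 0.000712). Both calls held without each of the 12 arrays in turn, the first between -1.94 and -1.56. 1417194_at was down-regulated 2.04-fold against 0 h (-1.03, SE 0.29, adjusted p = 0.0247) and 2.66-fold against 6 h (-1.41, SE 0.29, adjusted p = 0.0127). Its call against 0 h was lost without experiment 2 at 0 h (-0.69, adjusted p = 0.241) or experiment 2 at 24 h (-0.74, adjusted p = 0.108), and its call against 6 h without either 6 h array (adjusted p = 0.0704 and 0.128).

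Whether probe sets of 1 gene changed unequally was tested on the difference of their log2 signals on the same array, for every pair of tested probe sets of a gene on the platform (14532 pairs). Of the 24 pairs among these genes, 7 were called at 24 h, where 6.12% of all pairs were called: 4 of the 6 Sod2 pairs, 2 of 6 Sod1 pairs and the Gclm pair. Pairs that share a probe set or gene are not independent, and the 4 Sod2 calls describe the same split. Sod2 was also named beforehand as a gene whose probe sets disagree, so its calls do not count as a new finding against that share. At 24 h the log2 fold change of 1417193_at exceeded that of 1454976_at by 2.02 (SE 0.15, adjusted p = 0.000989), and that of 1448610_a_at exceeded it by 2.01 (SE 0.20, adjusted p = 0.00127). Against 1417194_at the corresponding differences were 1.30 for 1417193_at (SE 0.24, adjusted p = 0.0153), and -1.29 for 1417194_at minus 1448610_a_at (SE 0.27, adjusted p = 0.0273). Within either side no pair was called, with 0.01 (SE 0.13) for 1417193_at minus 1448610_a_at and 0.72 (SE 0.24, adjusted p = 0.115) for 1417194_at minus 1454976_at. At 12 h 0 of the 24 pairs were called in limma, and 6 had an unadjusted p under 0.05. The share of all pairs called at 12 h is not given here, so this count does not show that the probe sets agreed then. Over the whole course 3 of the 24 were called, 2 of Sod2 and 1 of Gclm, where 2.5% of all pairs were called. Where in the transcript each probe set lies was not analysed here.

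**Figure D2:**
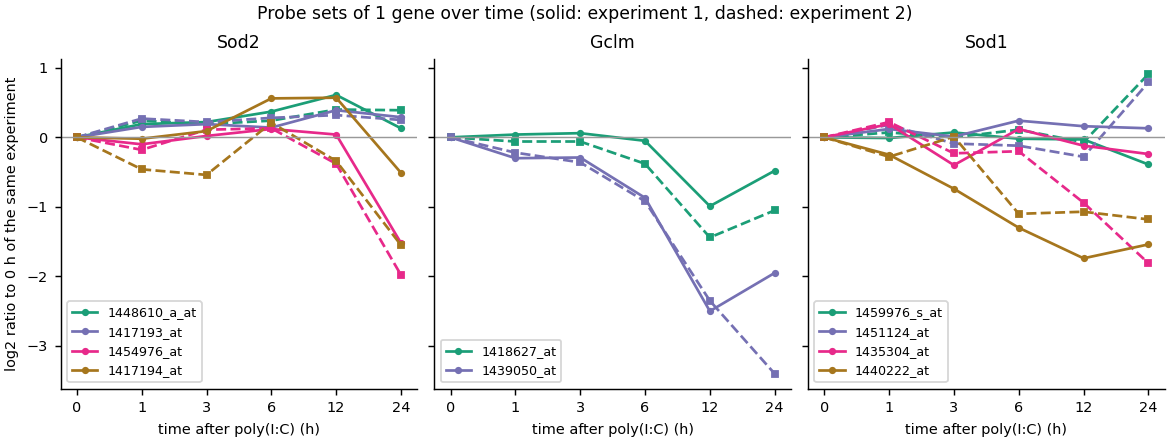
Log2 ratio of signal + 16 to 0 h within each experiment, against time after poly(I:C) in h, for the tested probe sets of Sod2, Gclm and Sod1, with 1 colour per probe set, solid lines for experiment 1 and dashed lines for experiment 2. At 24 h 2 Sod2 probe sets lay above 0 and 2 below it in both experiments, and Gclm 1439050_at fell further than 1418627_at.

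Sod1 encodes the copper and zinc superoxide dismutase of the cytosol. Its lead probe set, 1459976_s_at, gave 2854, 2829, 2999, 2823, 2794 and 2172 in experiment 1, and 4441, 4666, 4454, 4802, 4235 and 8374 in experiment 2. Levels stayed near those of 0 h through 12 h in both experiments, and at 24 h they parted, to 0.76 of the 0 h signal in experiment 1 and 1.88 in experiment 2. The log2 fold change at 24 h was 0.26 (SE 0.29, adjusted p = 0.559), with -0.39 in experiment 1 and 0.91 in experiment 2. Without experiment 1 at 24 h it was 0.90 (adjusted p = 0.000625). The second probe set, 1451124_at, had 0.13 in experiment 1 and 0.79 in experiment 2 at 24 h (fit 0.46, SE 0.24, adjusted p = 0.185, and 0.87 with adjusted p = 0.00382 without experiment 1 at 24 h).

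The dim Sod1 probe set 1440222_at was below its 0 h signal from 6 h on in both experiments, with 501, 418, 294, 194, 139 and 161 in experiment 1, and 134, 108, 136, 53.8, 55.5 and 50.4 in experiment 2. It was called lower at 6 h (log2 -1.20, SE 0.30, adjusted p = 0.0465), at 12 h (-1.40, adjusted p = 0.00709) and at 24 h (-1.36, adjusted p = 0.00854), each time in both experiments. It is the only probe set of these genes called at 6 h, and 3 of the 23 had an unadjusted p under 0.05 there. The 6 h call was lost in 5 of the 8 other settings tried and when any 1 of 10 arrays was left out (adjusted p between 0.0533 and 0.371), all but the 24 h arrays, the 12 h call in 1 of the 8 and without experiment 1 at 0 h (adjusted p = 0.0863) or at 12 h (adjusted p = 0.0608), and the 24 h call in 2 of the 8 and without experiment 1 at 0 h (adjusted p = 0.0948). At 24 h its log2 fold change was below that of 1451124_at (difference -1.82, SE 0.35, adjusted p = 0.0193) and below that of the lead (difference -1.62, SE 0.38, adjusted p = 0.0365). The remaining tested probe set, 1435304_at, had -1.02 at 24 h (SE 0.38, adjusted p = 0.0742), with -0.24 in experiment 1 and -1.81 in experiment 2, and -1.72 (adjusted p = 0.00168) without experiment 1 at 24 h.

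Gclm and Gclc encode the modifier and the catalytic subunit of glutamate-cysteine ligase, the rate-limiting enzyme of glutathione synthesis. Gclm 1418627_at gave 12878, 13241, 13391, 12469.5, 6493 and 9257 in experiment 1, and 8605, 8254, 8233, 6630.4, 3169.7 and 4137 in experiment 2. Within each experiment the level was steady to 3 h and lowest at 12 h, and both 12 h arrays lay below both 0 h arrays, while the 24 h arrays overlapped with them. Gclm was down-regulated 2.32-fold at 12 h (log2 -1.21, SE 0.17, adjusted p = 0.000659) and 1.70-fold at 24 h (-0.76, SE 0.17, adjusted p = 0.00808). The 12 h call held without each of the 12 arrays in turn (-1.37 to -1.05), and the 24 h call was lost without experiment 2 at 0 h (-0.61, adjusted p = 0.0983). With no replicate block, the adjusted p was 0.153 at 12 h and 0.384 at 24 h.

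The second Gclm probe set fell further. 1439050_at gave 2881, 2342, 2351, 1573, 497 and 733 in experiment 1, and 2320.0, 1993, 1808, 1219, 442 and 206 in experiment 2, and all 12 h and 24 h arrays lay below both 0 h arrays. It was down-regulated 5.36-fold at 12 h (log2 -2.42, SE 0.34, adjusted p = 0.000669) and 6.39-fold at 24 h (-2.68, SE 0.34, adjusted p = 0.000406), and both calls held without each array in turn and in all 9 other settings tried. At 6 h its log2 fold change was -0.89 (SE 0.34, adjusted p = 0.163), with -0.87 in experiment 1 and -0.92 in experiment 2, and it passed with only the 4 arrays of that comparison (adjusted p = 0.00425) and without experiment 1 (adjusted p = 0.00147) or experiment 2 (adjusted p = 0.00132) at 24 h. At 24 h the fall was greater than that of 1418627_at by 1.91 on the log2 scale (SE 0.28, adjusted p = 0.00627), while at 12 h the difference of 1.21 was not called (SE 0.28, adjusted p = 0.0786). Both probe sets were lower against 0 h, so they agreed in direction and not in size.

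Gclc 1424296_at gave 5173, 4908, 5119.9, 4476, 3032 and 7359 in experiment 1, and 1391, 1436, 1114, 818, 332 and 621 in experiment 2. The lowest array of each experiment was that of 12 h, but the experiments lay so far apart that the 12 h and 0 h arrays overlapped. Gclc was down-regulated 2.63-fold at 12 h (log2 -1.39, SE 0.38, adjusted p = 0.0209), by -0.77 in experiment 1 and -2.02 in experiment 2 on the log2 scale. Its second probe set, 1455959_s_at, was also called lower (-1.17, SE 0.32, adjusted p = 0.0221). Without experiment 2 at 0 h or at 12 h the lead had -1.03 (adjusted p = 0.181) and -1.01 (adjusted p = 0.184), and 1455959_s_at had -0.84 (adjusted p = 0.196) and -0.83 (adjusted p = 0.192). At 24 h Gclc moved in opposite directions, by 0.51 in experiment 1 and -1.14 in experiment 2, so that the fit of -0.32 (SE 0.38, adjusted p = 0.581) describes neither. Without experiment 1 at 24 h it was -0.95 (adjusted p = 0.0474).

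Gclm and Srxn1 were the genes called lower at 12 h by their lead probe set for which the RefSeq table (GRCm38.p6) holds a promoter, 250 bases before to 50 after the start of transcription, and their windows are shown because both hold the motif of the factor named above. Capitals mark matches on either strand to the antioxidant response element core TGACNNNGC or to the AP-1 site TGANTCA. Gclm lies at chr3:122245307-122245606 on the + strand, with GCACCGTCA, the core on the opposite strand, starting at position -134 (counted from the start of transcription, negative before it). Srxn1 lies at chr2:152105274-152105573 on the + strand, with AP-1 sites starting at -102 and -45 and the core on the opposite strand, GCTAGGTCA, at 29. In these windows no match of one motif overlaps the other.
Gclm: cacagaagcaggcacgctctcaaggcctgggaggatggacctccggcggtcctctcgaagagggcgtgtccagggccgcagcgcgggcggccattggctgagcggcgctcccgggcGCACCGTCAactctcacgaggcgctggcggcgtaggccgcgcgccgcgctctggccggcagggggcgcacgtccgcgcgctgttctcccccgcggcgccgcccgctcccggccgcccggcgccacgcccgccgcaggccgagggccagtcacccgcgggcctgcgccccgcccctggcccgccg
Srxn1: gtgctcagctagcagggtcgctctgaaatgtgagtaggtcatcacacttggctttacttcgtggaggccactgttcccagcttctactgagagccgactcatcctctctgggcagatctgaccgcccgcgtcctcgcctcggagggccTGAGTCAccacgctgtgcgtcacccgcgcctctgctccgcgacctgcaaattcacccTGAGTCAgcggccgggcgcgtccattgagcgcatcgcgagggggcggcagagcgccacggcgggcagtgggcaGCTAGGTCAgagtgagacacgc

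The table holds 10 windows of 8 of the 10 genes (3 of them of Txnrd1), all but Hmox1 and Gclc. A core was found in at least 1 window of 6 genes, Sod1, Gclm, Txnrd1, Srxn1, Prdx1 and Nfe2l2, and an AP-1 site in 2, Srxn1 and Prdx1. In Prdx1 a core and an AP-1 site, starting at -133 and -131, overlap. Of all 32851 windows of this length, 12.4% hold the core and 7.81% the AP-1 site. These shares are per window, while the counts above are per gene, and Txnrd1 has 3 windows. Sod2 and Nqo1 have windows with neither motif. Genes with a core included Gclm and Srxn1, called lower at 12 h by their leads, Sod1, called lower at 12 h by a probe set other than its lead, and Nfe2l2, which was not called at any time, and a match is a run of letters, not a bound site.

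Srxn1 encodes sulfiredoxin, which repairs over-oxidised peroxiredoxins such as the product of Prdx1. Its lead, 1426875_s_at, gave 10406, 10459.8, 11087, 7981, 6018 and 10055 in experiment 1, and 6807, 6934, 6297, 5201, 3231 and 2974 in experiment 2. Both 12 h arrays lay below both 0 h arrays, whereas at 24 h experiment 1 was back near its 0 h signal and experiment 2 was at its lowest. Srxn1 was down-regulated 1.91-fold at 12 h (log2 -0.93, SE 0.25, adjusted p = 0.0214). Another 2 probe sets were called lower at 12 h, 1425351_at (-1.05, SE 0.30, adjusted p = 0.0271) and 1451680_at (-0.83, SE 0.24, adjusted p = 0.0256), and 1419942_at had -0.58 (SE 0.20, adjusted p = 0.0548). Of the 6 Srxn1 pairs 0 were called at 24 h and 0 had an unadjusted p under 0.05 in limma. At 24 h the lead had -0.62 (SE 0.25, adjusted p = 0.0981), with -0.05 in experiment 1 and -1.19 in experiment 2.

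The 12 h call of the Srxn1 lead was lost without experiment 1 at 0 h (log2 -1.09, adjusted p = 0.0609), experiment 2 at 0 h (-0.77, adjusted p = 0.159), experiment 1 at 12 h (-0.94, adjusted p = 0.1) or experiment 2 at 12 h (-0.92, adjusted p = 0.108). It was lost also where each array was centred on its median (-0.62, adjusted p = 0.0779). 1425351_at and 1451680_at lost theirs without either 0 h array or experiment 1 at 12 h (adjusted p between 0.113 and 0.226), and 1451680_at without experiment 2 at 12 h (adjusted p = 0.0939). Without experiment 1 at 24 h the 24 h value of the lead was -1.14 (adjusted p = 0.000211).

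Txnrd1 encodes the cytosolic thioredoxin reductase, which uses NADPH to recycle thioredoxin. Its lead, 1421529_a_at, gave 15341, 17043, 17819, 16747, 14429 and 12956 in experiment 1, and 13179, 14898, 15096, 12814, 6351 and 5024 in experiment 2. Both 24 h arrays lay below both 0 h arrays, by less in experiment 1 than in experiment 2. The log2 fold change of the lead was -0.57 at 12 h (SE 0.29, adjusted p = 0.17) and -0.82 at 24 h (SE 0.29, adjusted p = 0.0604), with -0.24 in experiment 1 and -1.39 in experiment 2 at 24 h. Without experiment 1 at 24 h it was -1.28 (adjusted p = 0.00335).

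The other Txnrd1 probe sets were called lower at 24 h. 1424486_a_at gave 5251, 4809, 5092, 4113, 3949.5 and 2688 in experiment 1, and 3113, 3384, 4346, 3838, 1649 and 1128 in experiment 2, and it was down-regulated 2.31-fold (log2 -1.21, SE 0.28, adjusted p = 0.0105). 1424487_x_at was down-regulated 1.86-fold (-0.90, SE 0.24, adjusted p = 0.0219), by -0.84 in experiment 1 and -0.95 in experiment 2. Against 6 h they were lower as well, by -1.18 (adjusted p = 0.0225) and -0.91 (adjusted p = 0.0357). The 24 h calls against 0 h were lost without experiment 1 at 0 h (adjusted p = 0.0732 and 0.116) or experiment 2 at 0 h (adjusted p = 0.0638 and 0.109), and that of 1424487_x_at without experiment 2 at 24 h (-0.81, adjusted p = 0.0567). Of the 3 Txnrd1 pairs 0 were called at 24 h and 0 had an unadjusted p under 0.05 in limma, so the probe sets were not shown to differ in their change.

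Nqo1 encodes a quinone reductase and is a standard readout of NRF2. Its only probe set, 1423627_at, gave 2424, 2149.8, 3030.1, 3546, 3411 and 3454 in experiment 1, and 1669, 2237, 1765, 1949, 1762 and 1192 in experiment 2. Levels from 3 h on were above the 0 h signal in experiment 1, and in experiment 2 the 24 h array was the lowest. The log2 fold change was 0.28 at 12 h (SE 0.29, adjusted p = 0.512) and 0.01 at 24 h (SE 0.29, adjusted p = 0.979), the second made of 0.51 in experiment 1 and -0.48 in experiment 2.

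Nfe2l2 1416543_at gave 13664, 14018, 13440.5, 16345, 20028 and 13794 in experiment 1, and 13497, 17921, 15166, 17416, 16653 and 9649.7 in experiment 2. Both 12 h arrays lay above both 0 h arrays, and the 24 h arrays did not stand apart from them. The log2 fold change was 0.43 at 12 h (SE 0.20, adjusted p = 0.131) and -0.23 at 24 h (SE 0.20, adjusted p = 0.414). Neither passed, but the 12 h value passed with each array centred on its median (0.73, adjusted p = 0.0195) and without either 24 h array (0.43, adjusted p = 0.03 and 0.0297), and the 24 h value without experiment 1 at 24 h (-0.53, adjusted p = 0.0343). The dim probe set 1457117_at had -0.53 at 12 h (SE 0.27, adjusted p = 0.166). The amount and location of the NRF2 protein were not measured.

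**Figure D3:**
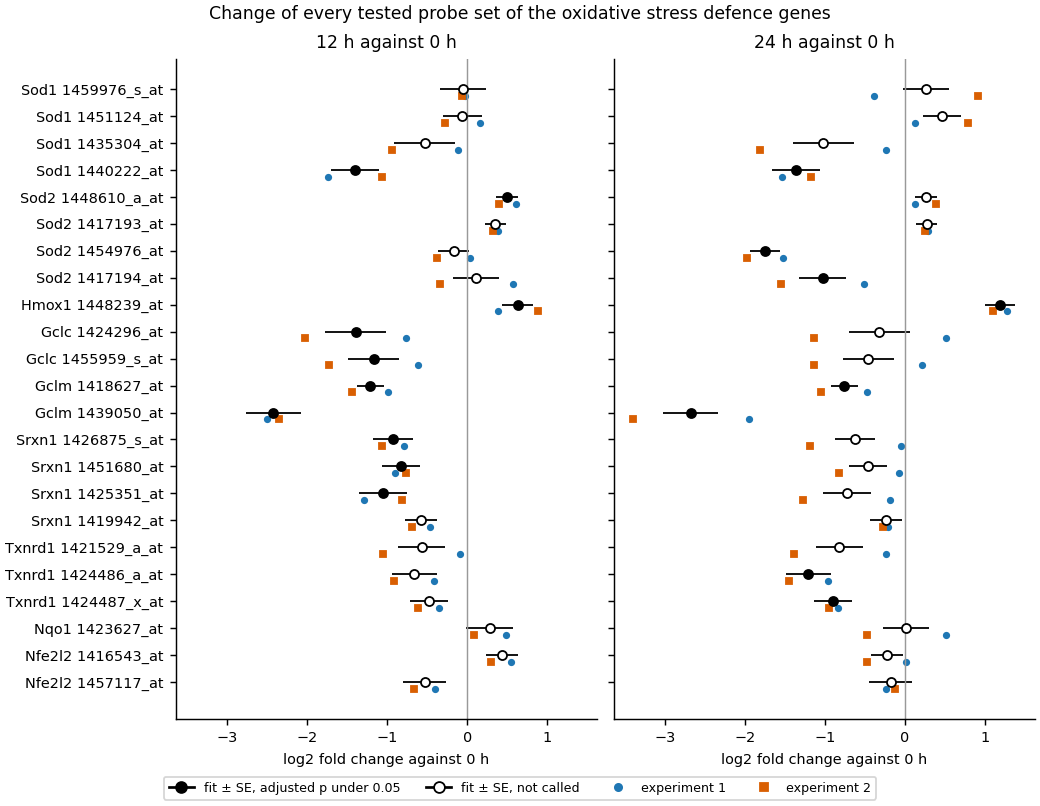
Log2 fold change of signal + 16 against 0 h for the 23 tested probe sets at 12 h (left) and 24 h (right); black circles are the fit with its SE, filled where the adjusted p was under 0.05, and coloured symbols are the experiments. At 12 h 2 probe sets were called higher and 8 lower, and at 24 h 1 higher and 7 lower.

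The experiments stood apart for several of these genes before treatment. At 0 h Gclc was 3.69-fold higher in experiment 1 than in experiment 2, and at 24 h 11.58-fold. Sod1 by its lead was 1.55-fold higher in experiment 2 at 0 h, and Gclm and Srxn1 were 1.5-fold and 1.53-fold higher in experiment 1. Sod2 and Nfe2l2 differed least at 0 h, with log2 differences of 0.06 and -0.02 (experiment 2 minus experiment 1). Over all tested probe sets, the share with a difference between experiments of more than 1 on the log2 scale was 24.8% at 24 h and 9.16% at 0 h. With n = 2 mice, how far such differences come from the mouse, the culture or the hybridisation was not tested.

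Around these genes, 96 related genes in 9 lists were counted by lead probe set, of which 82 were tested. At 1 and 3 h 0 of the 82 were called in limma (5 and 4 had an unadjusted p under 0.05). At 6 h 4 were higher (4.88%, beside 3.62% of all tested probe sets) and 1 lower (1.22%, beside 1.95%). At 12 h 17 were higher (20.7%, beside 9.32%) and 25 lower (30.5%, beside 18.7%). At 24 h 19 were higher (23.2%, beside 9.23%) and 17 lower (20.7%, beside 17.5%). Their median log2 fold change was -0.34 at 12 h (beside -0.23) and -0.11 at 24 h (beside -0.19). The counts of each list below stand beside these same shares of all tested probe sets, and in lists of 3 to 18 genes several lie near them. Of 11 tested further NRF2 target genes, 6 (54.5%) were lower at 12 h, among them the exporter Abcc4 (-1.83, adjusted p = 0.00261), Trim16 (-1.97, adjusted p = 0.00632) and the carbonyl reductase Cbr3 (-0.93, adjusted p = 0.00535). At 24 h 4 (36.4%) were lower and 1, Cbr1, was higher (0.90, adjusted p = 0.00836).

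Of 18 glutathione genes, 3 were higher (16.7%) and 4 lower (22.2%) at 12 h, and at 24 h 4 were higher (22.2%) and 2 lower (11.1%). The cystine importer gene Slc7a11, also a known NRF2 target, had signals of 8899 and 10339 at 24 h against 4046 and 3349 at 0 h (log2 1.38, adjusted p = 0.000739). The glutathione reductase gene Gsr had 1715 and 711 at 24 h against 3753 and 2948 at 0 h (-1.57, adjusted p = 0.00109). Of 12 thioredoxin, peroxiredoxin and sestrin genes, 5 were higher (41.7%) and 3 lower (25.0%) at 12 h and likewise at 24 h, with the endoplasmic reticulum peroxiredoxin gene Prdx4 higher at 24 h (0.98, adjusted p = 0.00234) and those of the mitochondrial proteins Prdx3 (-1.15, adjusted p = 0.000998) and Txn2 (-0.91, adjusted p = 0.00504) lower. The sestrins parted, with Sesn3 higher (2.12, adjusted p = 0.00131) and Sesn1 lower (-1.74, adjusted p = 0.00321) at 24 h.

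Of 9 tested genes that supply NADPH, which Txnrd1 and Gsr consume, 3 were lower at 12 h (33.3%) and 2 at 24 h (22.2%), with the NAD kinase gene Nadk at -1.46 (adjusted p = 0.00264) at 24 h. Of 6 tested genes of the list of oxidant sources (the NADPH oxidase genes and the inducible nitric oxide synthase gene Nos2), 4 (66.7%) were higher at 12 h and 4 at 24 h. Ncf4, a cytosolic subunit of the oxidase, had 10461 and 13063 at 24 h against 3661 and 4374 at 0 h (log2 1.54, adjusted p = 9.89e-05). Nos2 had 1880 and 4236 at 12 h against 5.7 and 10.0 at 0 h (adjusted p = 1.7e-05), and no fold is given because both 0 h signals were below 16, the constant added before log2. The membrane subunits Cybb (0.55, adjusted p = 0.0113) and Cyba (0.46, adjusted p = 0.021) were higher at 12 h.

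**Figure D4:**
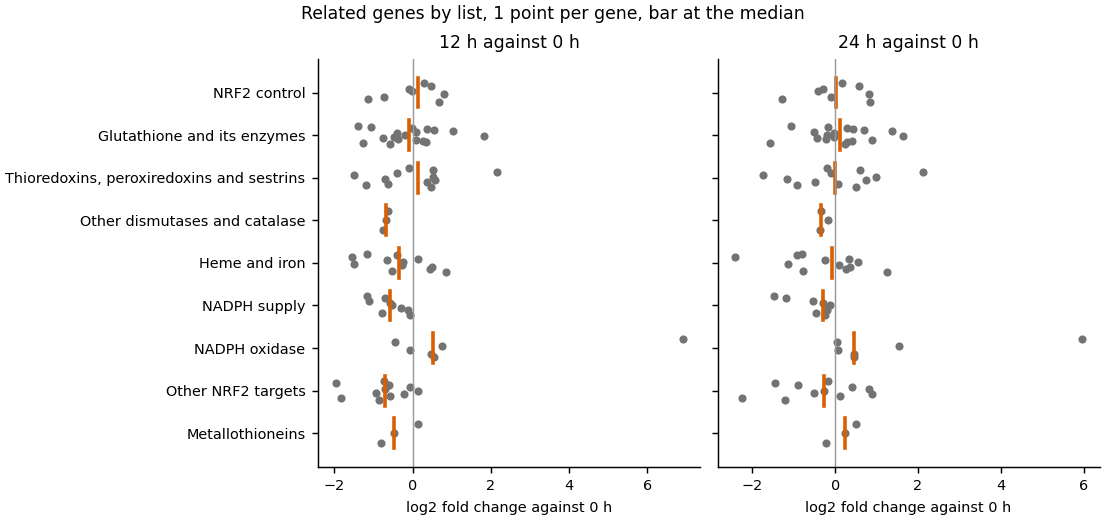
Log2 fold change of signal + 16 against 0 h of the 82 tested related genes by list at 12 h (left) and 24 h (right), with 1 grey point per gene and an orange bar at the median of the list. At 12 h the medians were -0.72 for the further NRF2 targets, -0.58 for NADPH supply and 0.51 for the oxidant sources, and the place of Nos2, the point farthest right, is set by the constant added before log2.

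Of 12 tested genes of heme and iron, 3 were higher (25.0%) and 4 lower (33.3%) at 12 h. At 24 h 2 were higher (16.7%) and 5 lower (41.7%). Hmox2, the constitutive heme oxygenase gene, was higher at 24 h (log2 1.24, adjusted p = 0.000297), as Hmox1 was, while the iron exporter gene Slc40a1 (-1.14, adjusted p = 0.00869) and the transferrin receptor gene Tfrc (-2.41, adjusted p = 0.000427) were lower. Of 8 genes that control NRF2, 2 were higher and 2 lower at 12 h (25.0% each), with Bach1 and Mafg (-0.74, adjusted p = 0.023) lower, and at 24 h 3 were higher (37.5%) and 1 lower (12.5%). The repressor gene Bach1 had 1925 and 656 at 24 h against 3439 and 2232 at 0 h (-1.29, adjusted p = 0.00504), and Mafk (0.82, adjusted p = 0.0158), Sqstm1 (0.57, adjusted p = 0.0173) and Keap1, the gene of the inhibitor of NRF2 (0.84, SE 0.23, adjusted p = 0.0219), were higher. At 12 h Keap1 had 0.67 (adjusted p = 0.0512). Keap1 and Mafg were named after their values were seen. The catalase gene Cat was lower at 12 h (-0.75, adjusted p = 0.00926) and not called at 24 h (-0.36, adjusted p = 0.15). Of the metallothioneins Mt1 (-0.81, adjusted p = 0.0205) and Mt2 (-0.49, adjusted p = 0.0314) were lower at 12 h.

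As a description, the genes whose log2 signals over the 12 arrays ran most like those of each lead probe set were listed by Pearson r, over arrays that share 2 experiments and 0 h references. For Gclm these were Pgap1 (0.976), Cat (0.974) and Cbr3 (0.972). For Hmox1 they were Gnas (0.977), Ccni (0.965) and Lrpap1 (0.961), and for Sod2 Zfp429 (0.936), Dcbld2 (0.935) and F10 (0.925). For Gclc they were Bptf (0.996), Zbtb20 (0.977) and Pkp2 (0.973), for Srxn1 Tnrc6a (0.987), Gtf3c2 (0.986) and Stxbp5 (0.982), and for Txnrd1 Zfp959 (0.978), Yipf6 (0.975) and Trpm7 (0.975). For Sod1 they were Ndufa3 (0.973), Atp5h (0.966) and Ssr4 (0.965), for Nqo1 Zeb2 (0.964), Kat6a (0.96) and Tnks (0.946), and for Nfe2l2 Sec23b (0.932), Mmp14 (0.902) and Cggbp1 (0.9). The difference between the experiments was not removed from these signals, so r holds it along with the course. For the Gclc lead that difference lay between -3.53 and -1.76 on the log2 scale (experiment 2 minus experiment 1).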

How the data were processed

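Transcript levels were measured in DC at 6 times in 2 replicate experiments. The authors computed intensity values by MAS5.0, each experiment hybridised and normalized on its own, and every deposited array has a trimmed mean of 500 (top and bottom 2% left out). The software version is not given in the sources used here. The table holds 45101 probe sets, 64 of them controls, and symbols came from the platform annotation (34945 with 1 gene, 932 with several, 9160 with none).

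Log2 of intensity plus 16 on all 12 arrays entered a linear model in limma 3.58.1 (R 4.3.3) that held time and, as a replicate block, the experiment. Moderation followed the intensity trend and rested on 5 residual and 5.238 prior degrees of freedom. Tests covered the 22519 probe sets at or above a mean of 78.4, and Benjamini-Hochberg adjustment ran over all of them. The pairing comes from the study's methods, which describe the experiments as run apart. Deviations from the means of the times correlated within an experiment at 0.2562 to 0.6596 (median 0.5728) over 15 pairs of times. The number of arrays limits the precision. With the block, a constant difference between the experiments is removed. The p-values weigh the mean change over the 2 experiments against its SE. That SE rests on how unequal the changes over time were between the experiments, pooled over the times and moderated over probe sets.

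Pairs of probe sets of 1 gene were fitted the same way. All members were named, and of each related list up to 3 genes with the smallest p among those called at 12 h and up to 3 at 24 h, plus the 3 genes most like each member. Members, lists and the comparison of 24 h with 6 h were chosen with earlier results of these data known. Alternatives were other pseudocounts, filters, scalings, terms, probe sets and sets of arrays. The fit was tested on simulated data. Tables used Python 3.11.15, numpy 2.4.6 and pandas 2.3.3, and figures matplotlib 3.10.9.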

Additional observations from a re-analysis of the deposited data

Results flagged for a closer look

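The difference between 24 h and 6 h was itself tested with limma. It separated these times for 6 of the 23 tested probe sets, 1 higher and 5 lower at 24 h. Of all tested probe sets 5.52% were higher and 7.9% lower. Only 1 of the 9 lead probe sets, that of Hmox1, was called. The comparison was chosen with the late fall of Sod2 known, so the Sod2 calls are no independent test of it. Hmox1 was higher at 24 h than at 6 h by 0.97 on the log2 scale. Lower at 24 h than at 6 h were Sod2 1454976_at (-1.88), Gclm 1439050_at (-1.78), Sod2 1417194_at (-1.41), Txnrd1 1424486_a_at (-1.18) and Txnrd1 1424487_x_at (-0.91). Apart from Sod2 1454976_at, each of these calls was lost without at least 1 array, for Gclm 1439050_at and Hmox1 without either 6 h array (adjusted p = 0.0644 and 0.0991 for Gclm, 0.0672 and 0.123 for Hmox1), for Sod2 1417194_at likewise (0.0704 and 0.128), for Txnrd1 1424486_a_at without experiment 2 at 6 h (0.227) or 24 h (0.0704), and for Txnrd1 1424487_x_at when any 1 of 5 arrays was left out (0.0593 to 0.272). Groups of 2 arrays are too small for a search for outlying samples.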

How the results depend on the processing

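Of 25 called values of the 23 probe sets, those that kept their call in every setting tried and without each array in turn were Gclm 1439050_at at 12 and 24 h, Hmox1 at 24 h, and Sod2 1454976_at at 24 h against both 0 h and 6 h. No called value changed sign. Over 2880 alternatives of 138 values, 2612 kept direction and side of the threshold, 113 lost a call, 47 gained one, and 108 changed sign with no call on either side.

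With no replicate block (the fit that ignores the paired design), lead probe sets higher at 12 h numbered 0, against 2 in the reported fit, those lower at 12 h 0 against 3, those lower at 24 h 0 against 1, those differing between 24 h and 6 h 0 against 1, those changing over the course 0 against 2, and pairs that disagreed 1 against 3. With quantile normalization these counts were 0 higher at 12 h, 2 lower at 24 h, 2 between 24 h and 6 h and 5 over the course. With the probe set of smallest F test p in place of the lead, 1 was lower at 6 h, 1 higher at 12 h, 4 lower at 24 h, 4 differed between 24 h and 6 h and 5 over the course. With only the 4 arrays of a comparison, 1 was higher at 12 h, 0 lower at 24 h and 0 differed between 24 h and 6 h. With no filter on low signal, or with no intensity trend, 0 were higher at 12 h, and with a stricter filter 2 differed between 24 h and 6 h.

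Leaving out each array in turn gave 0 to 1 lower at 6 h, 0 to 3 higher and 1 to 4 lower at 12 h, 1 to 3 higher and 0 to 5 lower at 24 h, 0 to 7 between 24 h and 6 h, 2 to 8 over the course and 2 to 10 pairs. The highest of these at 24 h, between 24 h and 6 h, over the course and for pairs came without experiment 1 at 24 h, where the remaining 24 h array was assumed to vary like the other times. Centring arrays on their medians raised the median of all fold changes by 0.31 at 12 h and 0.24 at 24 h, and turned 2098 higher and 4205 lower probe sets at 12 h into 3254 and 2205, and 2078 and 3933 at 24 h into 3165 and 2574. Quantile normalization gave 2386 higher and 3228 lower at 12 h and 2443 and 3297 at 24 h. The fit with no replicate block gave 1079 higher and 1936 lower at 12 h and 953 and 1671 at 24 h. Between 24 h and 6 h it gave 127 higher and 245 lower, against 1242 and 1778 in the reported fit. The cause of these changes was not tested.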
